A study of Saccharomyces cerevisiae with 48 samples.

Results

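The wild-type budding yeast arrays taken at 45, 60, 75 and 90 min after small daughter cells were put at 37 °C are described here, 4 of the 48 arrays of the series. They were chosen by strain and time alone, and the later window (75 and 90 min) was set against the earlier one (45 and 60 min), to ask which genes change as small daughters enter their first S phase and go beyond it. The wild-type cells were of strain BF264-15DU, mating type a, and carried bar1. The comparison strain was BF264-15DU, mating type a, with cdc28-4, a temperature-sensitive form of the gene of the cyclin-dependent kinase Cdk1. Both strains had been kept at 25 °C in rich medium (YEPD), their smallest cells were separated in an elutriation rotor, and these were shifted to 37 °C at time 0, so heat, rich medium and size selection are common to every array. Wild type was followed in 1 culture, with 15 arrays from 15 to 225 min and 1 array at each time. The cdc28-4 strain was followed in 2 courses with 33 arrays in all, and its 6 arrays at 50, 70 and 90 min serve as the comparison. The 4 wild-type arrays are therefore successive samples of 1 culture and not separate cultures.

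A daughter cell leaves G1 when the Cdk1 cyclin Cln3 and cell growth release the transcription factors SBF and MBF, which switch on G1 cyclins, budding and cell wall genes (SBF) and DNA replication genes (MBF). S phase brings the histone genes, then the targets of Hcm1 for the spindle and kinetochore. At the G2/M boundary Fkh2, Ndd1 and Mcm1 switch on the CLB2 cluster, whose products carry cells through mitosis. After a shift to heat, stress genes driven by Hsf1 and Msn2/4 are high for a time and then fall.

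Levels are log2 of the deposited array intensity, so a difference of 1 is a doubling of signal. Background was taken as the level under which 95% of the array's probe sets for fission yeast lie, 8.60 on average over the 4 arrays, and from 91.7% to 93.8% of the 5449 genes lay above it. As a check of the genotype, BAR1, which encodes the protease that destroys alpha factor, was under background on all 4 wild-type arrays at 7.69, 7.56, 7.49 and 7.38, against 12.71 on average in cdc28-4 at 50 min. The mating type markers fitted the label: of the 4 genes of alpha cells, MF(ALPHA)1, MF(ALPHA)2 and STE3 stayed under background and SAG1 lay above it, while the a-cell genes MFA1 and MFA2 read from 12.19 to 13.81. The median over all genes moved by -0.0091 between the windows and the fission yeast median rose by 0.071. The labels divide the samples between a pair of labelling kits in a way that, read in listing order, gives all wild-type arrays to one kit, so strain and kit cannot be told apart for levels.

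A gene is said to have risen or fallen when limma's adjusted p was under 0.05 over all 5449 genes and both later arrays lay on the same side of both earlier ones. The spread in that test comes from pairs of cdc28-4 arrays, and wild type is assumed to vary like them. By this rule 408 genes rose (7.49% of all genes) and 591 fell (10.8%), and the windows did not overlap for 45.6% of genes, whatever the test. When the 4 arrays were fitted by themselves, with the times of a window standing in for replicates, limma called none, although 668 genes had an unadjusted p under 0.05. In a fit of the 15 wild-type arrays neighbouring times again stood in for replicates, and the change came from the same 4 arrays. There 62 rose (1.14%) and 108 fell (1.98%), and 158 of those (2.9% of all genes) were called the same way in the full fit. By list that smaller fit called all 10 histones, 18 Msn2/4 genes, 9 iron genes, 6 chaperones, 4 spindle genes, 3 each of the MBF targets and the CLB2 cluster, 2 SBF targets and no replication fork or proteasome gene. When arrays were centred on their probe sets for fission yeast 231 rose and 841 fell, so that 21.5% of called genes were rises against 40.8% before. Leaving out the 45 min array brought the calls to 150 and 232, and leaving out the 90 min array to 202 and 251. Without the 60 min array they came to 684 and 852, without the 75 min array to 540 and 675.

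The lists of the cell cycle rose in a sequence across the 3 steps between neighbouring arrays. SBF targets had a median step of 0.76 from 45 to 60 min, 0.32 to 75 min and -0.36 to 90 min, and 14 of 20 were highest at 75 min within the 4 arrays. MBF targets stepped by 0.51, 0.16 and -0.22, and 20 of 28 were highest at 75 min, where only 11.3% of all genes had their highest value. Histones took their largest median step, 0.49, between 60 and 75 min, with 0.18 before and 0.10 after. Spindle and Hcm1 target genes stepped by 0.13, 0.19 and 0.29, and the CLB2 cluster by 0.15, 0.20 and 0.70, with 17 of its 19 genes highest at 90 min, against 31.9% of all genes. The SD of a step over all genes was 0.28, 0.17 and 0.20, and with 1 array at each time no single step has a test.

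**Figure D1:**
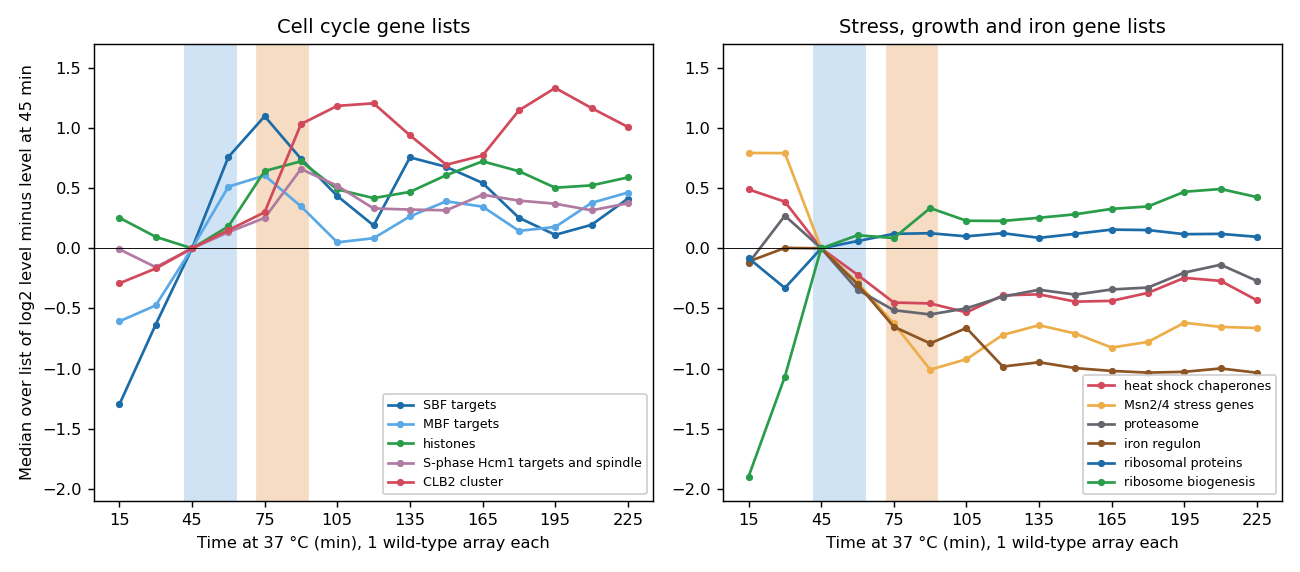
Median log2 level of gene lists relative to 45 min, 1 point for each of the 15 wild-type arrays, with the earlier window shaded blue and the later one orange. SBF and MBF targets peak at 75 min and turn down at 90 min while the CLB2 cluster climbs. In the right panel the stress and iron lists fall through both windows. The proteasome list falls until 75 min and is nearly level from there to 90 min (median step -0.027).

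**Figure D2:**
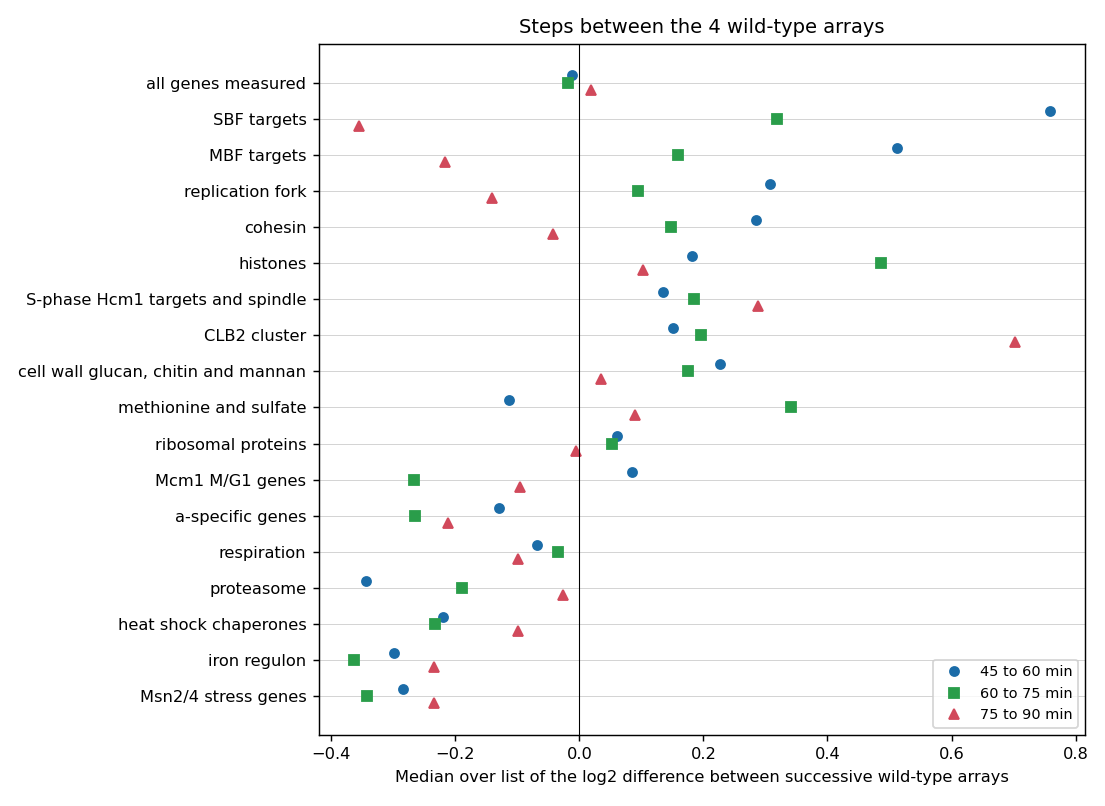
Median log2 step of each list between neighbouring wild-type arrays (45 to 60, 60 to 75 and 75 to 90 min). The largest median rise falls in the first step for SBF targets (0.76), in the second for histones (0.49) and in the last for the CLB2 cluster (0.70).

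Among the SBF targets 8 of 20 rose and 1 fell, with a median change of 0.54, beside 7.49% and 10.8% over all genes. TOS6, a cell wall mannoprotein, read 11.29, 12.51, 13.11 and 12.91 and rose by 1.10 ± 0.077 (SE, adjusted p 3.16e-08), or 2.15-fold. EXG1, the main exoglucanase of the wall, read 12.26, 12.86, 13.35 and 13.36 and rose by 0.80 ± 0.092 (adjusted p 7.31e-06). GIN4, a kinase that organises septins at the bud neck, rose by 0.67 ± 0.10. For these genes both later arrays stood above both earlier ones, with the larger part of the rise in place by 60 min for TOS6. SRL1, a wall mannoprotein, rose by 0.77 ± 0.17, and no longer passed without the 45 min (0.53) or the 90 min array (0.67). With one array left out the SBF count ran from 3 without 45 min to 18 without 60 min and 16 without 90 min.

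The G1 cyclins did not separate the windows, since they were already high at 60 min and lower again at 90 min. CLN2 (YPL256C) read 9.53, 11.02, 11.29 and 10.24, so its 90 min level was under its 60 min level, and its mean difference of 0.49 ± 0.11 is not counted as a rise. It had one of the 3 largest rises of any gene between 45 and 60 min, with the repressor YOX1 and the nitric oxide oxidoreductase YHB1. CLN1 (YMR199W) read 9.24, 10.28, 10.68 and 10.13, again with its peak at 75 min and overlapping windows. The Pho85 cyclin PCL1 read 8.99, 10.03, 10.28 and 9.72 in the same shape. The adjusted p of all 3 was under 0.05 (0.00325 for CLN2, 0.00043 for CLN1, 0.000166 for PCL1), and it is the overlap that keeps them from being counted. The value depends on which array is left out: without 60 min the differences were 1.24 for CLN2, 1.16 for CLN1 and 1.01 for PCL1, and without 45 min they were -0.26, 0.12 and -0.03, with adjusted p from 0.288 to 0.919. CLN3 (YAL040C), the most upstream G1 cyclin, went the other way: it read 11.05, 11.18, 10.91 and 10.56 and fell by 0.38 ± 0.076 on the log2 scale (adjusted p 0.00132). That call rests on the 90 min array, without which the difference was -0.20 (adjusted p 0.226).

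The S-phase cyclins were, like the G1 cyclins, highest at 75 min. CLB5 (YPR120C) read 10.76, 10.99, 11.11 and 10.90, a difference of 0.13 ± 0.076 (adjusted p 0.255). CLB6 (YGR109C) read 10.19, 10.95, 11.16 and 10.81, a difference of 0.41 ± 0.083 (adjusted p 0.00137) that is not counted because its 90 min array lay under its 60 min array. It was 0.79 without the 60 min, 0.58 without the 90 min and 0.029 without the 45 min array. Both mitotic cyclins of the CLB1/CLB2 pair were highest at 90 min. CLB2 (YPR119W), the main mitotic cyclin, read 8.70, 8.85, 9.31 and 10.34 and rose by 1.05 ± 0.13 (adjusted p 1.64e-05), or 2.07-fold. CLB1 (YGR108W) read 9.49, 9.79, 10.10 and 10.98 and rose by 0.90 ± 0.11 (adjusted p 1.84e-05). The largest part of both rises came between 75 and 90 min, and CLB2 at 45 min was close to background. CLB3 rose by 0.28 ± 0.084 and CLB4 by 0.35 ± 0.090, but neither passed without the 45 min or the 90 min array (0.15 and 0.18 for CLB3, 0.25 and 0.26 for CLB4). SWE1, the kinase that holds Clb-bound Cdk1 inactive, read 9.55, 10.16, 10.51 and 10.29 and rose by 0.55 ± 0.095, or by 0.24 (adjusted p 0.231) without the 45 min array. Of the 20 cyclins and Cdk regulators measured 5 rose and 2 fell, beside 7.49% and 10.8% of all genes. The rises numbered 2 without the 45 min array, 10 without the 60 min array and 8 without the 90 min array. The other fall was CAK1, the kinase that activates Cdk1, at -0.24 ± 0.073, which did not pass without the 45 min (-0.14) or the 90 min array (-0.19). CDC28 itself differed by 0.11 ± 0.11, and the Cdk inhibitor SIC1 by -0.08 ± 0.065. The SIC1 difference was -0.30 without the 60 min array and 0.14 without the 45 min array. PCL9, a Pho85 cyclin of early G1, read 9.09, 9.09, 9.39 and 9.49, a difference of 0.35 with adjusted p 0.0667, and 0.0133 with the replicate block.

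**Figure D3:**
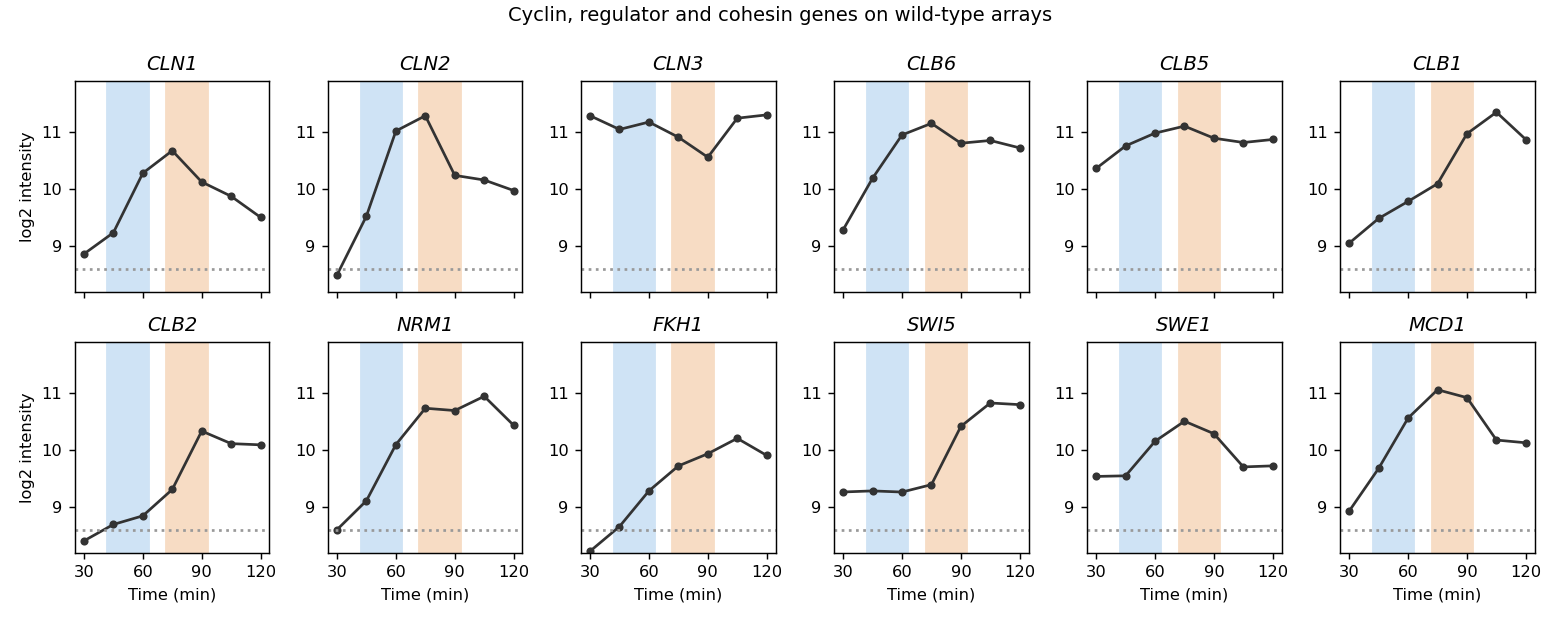
Log2 level of 12 cyclin, regulator and cohesin genes on the wild-type arrays from 30 to 120 min at 37 °C, 1 array for each point, with both windows shaded and background dotted. CLN1 and CLN2 peak at 75 min and are lower at 90 min, CLN3 is lowest at 90 min (10.56), and CLB1 and CLB2 climb to 10.98 and 10.34 at 90 min.

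Transcription factors of the cycle rose in 7 of 19 cases and fell in 1, beside 7.49% and 10.8% of all genes. They rose in 11 cases without the 60 min array and fell in 3 without the 45 min array. NRM1 (YNR009W), the co-repressor that shuts off MBF targets and is itself one, read 9.11, 10.10, 10.74 and 10.70 and rose by 1.11 ± 0.10 (adjusted p 6.76e-07), or 2.16-fold. YHP1, a repressor of early cell cycle boxes bound by Mcm1, read 9.20, 9.89, 10.28 and 10.46 and rose by 0.82 ± 0.067 (adjusted p 1.72e-07). FKH1, a forkhead factor of S phase and G2, read 8.66, 9.29, 9.73 and 9.94 and rose by 0.86 ± 0.095 (adjusted p 4.77e-06). These 3 went up on every array in turn or held level after 75 min, and each kept its call with any one of the 4 arrays left out. NDD1, the coactivator of the CLB2 cluster, rose by 0.63 ± 0.15, FKH2 by 0.28 ± 0.096 and SWI6, the shared subunit of SBF and MBF, by 0.43 ± 0.096. NDD1 did not pass without the 45 min (0.51) or 90 min array (0.58), nor FKH2 (0.15 and 0.16), nor SWI6 without the 90 min array (0.24).

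SWI5, the activator of late mitotic genes, read 9.29, 9.27, 9.40 and 10.42. Its change of 0.63 ± 0.086 comes from the 90 min array, without which it was 0.12 (adjusted p 0.592). MSA1, which binds SBF and MBF in G1, read 9.74, 10.16, 9.71 and 9.43 and fell by 0.38 ± 0.094 on the log2 scale, but did not pass without the 60 min (-0.17) or the 90 min array (-0.24). Its paralogue MSA2 read 10.41, 11.30, 10.97 and 9.89, highest at 60 min and lowest at 90 min, with overlapping windows. The SBF subunit SWI4 read between 9.70 and 9.82, and the MBF subunit MBP1 between 9.26 and 9.70. HCM1, whose product drives the spindle genes, read 9.90, 10.60, 10.83 and 10.56, but with an SE of 0.31 its difference of 0.45 did not pass (adjusted p 0.342). ASH1, the daughter repressor of HO, read 10.81, 10.80, 10.95 and 11.19, a difference of 0.27 with adjusted p 0.189, and 0.0460 with the replicate block.

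MBF targets and genes of the replication fork rose as groups by less than their first step, since they turned down between 75 and 90 min. Of the 28 MBF targets 9 rose and none fell, with a median change of 0.25. Of 34 fork genes 6 rose and none fell, with a median of 0.16, beside 7.49% risen and 10.8% fallen over all genes. POL1 (YNL102W), the catalytic subunit of the primase-polymerase alpha, read 10.28, 11.23, 11.48 and 11.46 and rose by 0.71 ± 0.10 (adjusted p 6.65e-05). POL2, the leading strand polymerase epsilon, read 10.10, 10.85, 11.03 and 11.23 and rose by 0.66 ± 0.11. In both the step from 45 to 60 min was the largest, and without the 45 min array neither passed (0.23 and 0.28). The damage response kinase DUN1 rose by 0.62 ± 0.11, and topoisomerase TOP2 by 0.56 ± 0.11 with its highest level, 12.17, at 90 min. DUN1 differed by 0.44 and TOP2 by 0.46 without the 45 min array, and neither passed (adjusted p 0.0529 and 0.0531), nor did TOP2 without the 90 min array (0.33). The MBF count was 1 without the 45 min array, 21 without the 60 min and 14 without the 90 min array, and 5 with fission yeast centring. The fork count was 1 without the 45 min and 17 without the 60 min array.

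Cohesin genes, whose products hold sister chromatids together from S phase, rose in 5 of 10 cases with a median of 0.27 and no falls. The shares over all genes were 7.49% risen and 10.8% fallen. MCD1, the cleavable kleisin subunit, read 9.68, 10.57, 11.06 and 10.92 and rose by 0.87 ± 0.11 (adjusted p 2.01e-05), or 1.83-fold. SMC3 read 10.20, 10.71, 11.03 and 11.07 and rose by 0.60 ± 0.092, and the cohesin-bound PDS5 rose by 0.66 ± 0.11. The count was 3 without the 75 min array or with fission yeast centring. MCD1, SMC3 and PDS5 lost their call without the 45 min array, at 0.43 for MCD1, 0.34 for SMC3 and 0.23 for PDS5, and no cohesin gene was called then. Of 10 genes of deoxynucleotide supply 2 rose: DUT1, the dUTPase, by 0.52 ± 0.082, and DIF1, which keeps ribonucleotide reductase in the nucleus, by 0.58 ± 0.14. They were 0.30 and 0.42 and did not pass without the 45 min array, nor did DIF1 without the 90 min array (0.46), while 7 genes of this list rose without the 60 min array and 5 without the 90 min array.

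Among the origin licensing genes, which act before S phase, 2 of 20 fell and 1 rose (2 with the replicate block), shares close to the 10.8% and 7.49% over all genes, with a median of 0.061. Those that fell numbered 4 without the 45 min or the 75 min array. MCM3, a subunit of the replicative helicase, read 10.55, 10.74, 10.30 and 10.06 and fell by 0.47 ± 0.079 on the log2 scale (adjusted p 0.000304). MCM5 read 10.53, 10.61, 10.26 and 10.04 and fell by 0.42 ± 0.065 (adjusted p 0.000136). Both were lowest at 90 min, and both are also Mcm1 targets of the M/G1 boundary. Of the 15 M/G1 genes 5 fell (3 without the 90 min array) and none rose (1 with the replicate block), with a median of -0.16. Of 14 histone chaperones and regulators 2 rose: the acetyltransferase RTT109 by 0.41 ± 0.071 and the chromatin assembly subunit CAC2 by 0.33 ± 0.11. They did not pass without the 45 min array (0.23 and 0.18), nor did CAC2 without the 75 min (0.35) or the 90 min array (0.31), and 4 genes of the list rose without the 60 min array.

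All 10 histone genes measured rose, with a median change of 0.59, and all 10 were also called in the fit of the 15 wild-type arrays. Their coding copies are close to identical, so signal may be shared between copies, such as HTA1 with HTA2 and HHT1 with HHT2. HHF2 was not analysed here. HTB2 (YBL002W), a gene of histone H2B, read 12.03, 12.81, 13.59 and 13.57 and rose by 1.16 ± 0.14 (adjusted p 1.64e-05), or 2.23-fold. HHO1 (YPL127C), the linker histone H1, read 10.39, 11.03, 11.53 and 11.70 and rose by 0.90 ± 0.064 (adjusted p 3.16e-08). HHT1 (YBR010W), a gene of histone H3, read 12.51, 12.55, 13.26 and 13.47 and rose by 0.84 ± 0.13 (adjusted p 0.0001). The shapes differed: HHT1 was level until 60 min and jumped by 75 min, while HTB2 and HHO1 had already risen by 60 min.

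The remaining histone genes rose by less. HTA1 and HTA2, of histone H2A, rose by 0.67 ± 0.11 and 0.60 ± 0.061, and HTB1 by 0.45 ± 0.062. HHT2 rose by 0.44 ± 0.093, and HHF1, of histone H4, by 0.57 ± 0.067. The variants rose as well, CSE4 of the centromere by 0.51 ± 0.061 and HTZ1, the H2A.Z variant of promoters, by 0.49 ± 0.12. In 9 of the 10 genes the highest of the 4 levels was at 90 min, and in 7 the step from 60 to 75 min was the largest. Over all genes 31.9% were highest at 90 min, and that step was the largest in 1153 of 5449. HTZ1 was the one histone gene that lost its call with an array left out, at 0.33 without 45 min and 0.43 without 90 min.

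**Figure D4:**
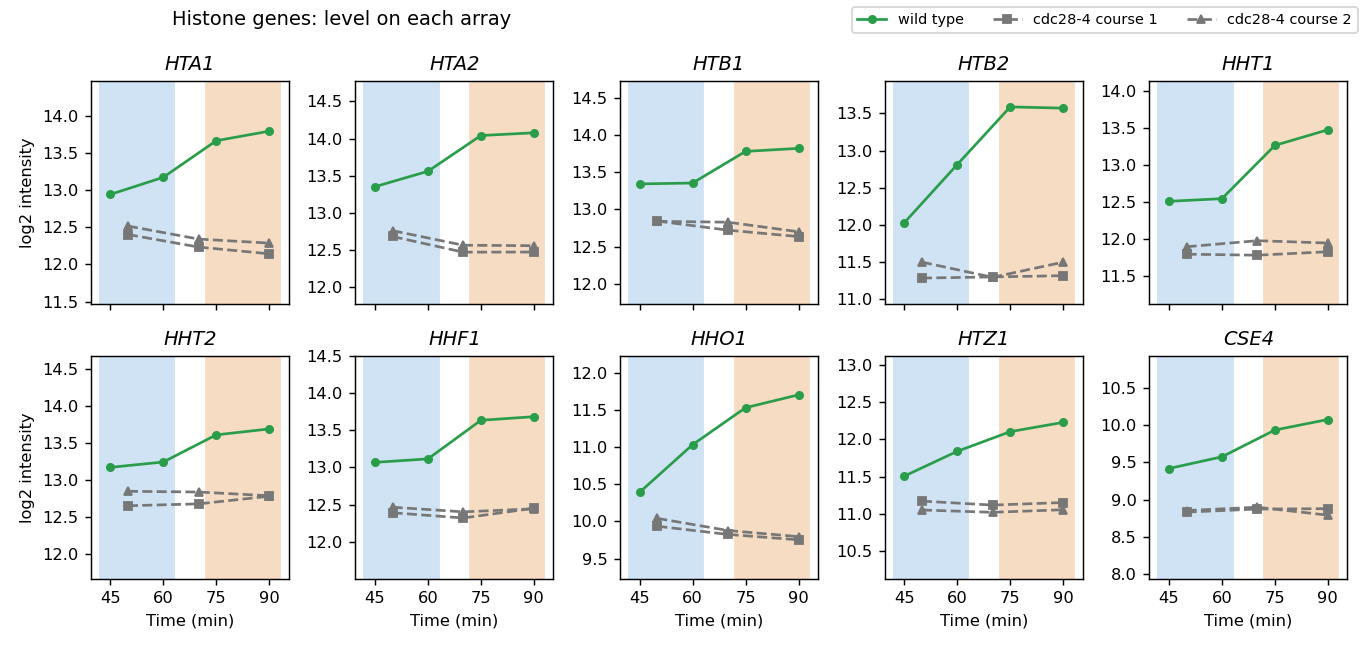
Log2 level of the 10 histone genes on the 4 wild-type arrays, with the cdc28-4 arrays at 50, 70 and 90 min from 2 courses for comparison. In wild type each gene is higher at 75 and 90 min than at 45 and 60 min, from a difference of 0.44 for HHT2 to 1.16 for HTB2, while in cdc28-4 the changes lie between -0.21 for HTA1 and 0.04 for HHT1.

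Spindle and kinetochore genes of the Hcm1 group rose in 17 of 29 cases and none fell, with a median change of 0.44. Over all genes 7.49% rose and 10.8% fell. SPC98, part of the gamma-tubulin complex that nucleates microtubules, read 8.90, 9.38, 9.91 and 9.97 and rose by 0.80 ± 0.085 (adjusted p 3.15e-06), or 1.74-fold. CIN8, a kinesin that pushes spindle poles apart, read 9.53, 9.23, 9.78 and 10.35 and rose by 0.68 ± 0.13 (adjusted p 0.000778). CIN8 dipped at 60 min and had its highest level at 90 min, and without that array its change was 0.40 (adjusted p 0.145). Within the 4 arrays 25 of the 29 genes were highest at 90 min, against 31.9% of all genes. The count was 11 without the 45 min array and 6 without the 90 min array.

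The CLB2 cluster rose in 12 of 19 cases with a median of 0.59, and 1 member fell, MSS2, a mitochondrial protein named after its value was seen. These counts stand beside 7.49% risen and 10.8% fallen over all genes. BUD4, which marks the site of the next bud, read 9.25, 9.45, 9.81 and 10.80 and rose by 0.95 ± 0.11 (adjusted p 8.48e-06). ALK1, a haspin-like kinase, read 10.30, 10.48, 10.90 and 11.78 and rose by 0.95 ± 0.12 (adjusted p 2.16e-05). CHS2, the chitin synthase of the primary septum, read 9.59, 9.81, 10.09 and 11.20 and rose by 0.95 ± 0.079 (adjusted p 1.83e-07). All 3, like CLB2, were a little higher at 75 than at 60 min and took their main step from there to 90 min. That step was the largest of the 3 steps in 16 of the 19 genes, and in 2231 of all 5449 genes. Without the 90 min array 6 members were called, so the size of this group's change rests largely on 1 array, although BUD4, ALK1, CHS2 and CLB2 kept their calls without it.

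DSE1 and DSE2, a pair of genes for proteins of the daughter cell wall, rose in wild type. DSE2, a glucanase, read 10.86, 11.20, 11.60 and 11.98 and rose by 0.76 ± 0.21 (adjusted p 0.0137). DSE1 read 9.45, 9.57, 9.95 and 10.51 and rose by 0.72 ± 0.18 (adjusted p 0.00719). Both climbed on every array in turn, but neither passed without the 45 min array (0.66 for DSE1, 0.60 for DSE2) or the 90 min array (0.44 and 0.57). PIR3, a wall protein with internal repeats, read 10.81, 10.48, 9.86 and 9.23 and fell by 1.10 ± 0.10 on the log2 scale (adjusted p 6.76e-07).

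Cell wall genes rose in 10 of 25 cases and fell in 1. For these and the following lists, the shares over all genes were 7.49% risen and 10.8% fallen. EXG2, an exoglucanase anchored at the surface, read 10.54 at 45 min and 11.44 and 11.63 at 75 and 90 min, with the 60 min array in between, and rose by 0.76 ± 0.063 (adjusted p 1.72e-07). GAS3, of the glucanosyltransferase family, read 12.09, 12.44, 12.86 and 13.04 and rose by 0.69 ± 0.074 (adjusted p 3.55e-06). Both went up on each array, and the wall count was 5 without the 45 min array. Of 20 budding and polarity genes 5 rose and 3 fell. GIC1, an effector of Cdc42 at the bud site, read 9.26, 9.88, 10.39 and 10.40 and rose by 0.82 ± 0.13, while RGA2, which turns Cdc42 off, read 10.44, 10.01, 9.80 and 9.63 and fell by 0.51 ± 0.081 on the log2 scale. The bud site GTPase RSR1 rose by 0.43 ± 0.060. Without the 45 min array none of the budding genes counted as risen, with GIC1 at 0.51 and RSR1 at 0.24, and RGA2 at -0.29 did not pass either. With fission yeast centring or without the 90 min array 3 rose. Of 11 septin genes and kinases 2 rose (1 without the 45 min array and 4 without the 75 min array), GIN4 and HSL1, which relays the septin ring to Swe1. HSL1 read 10.51, 10.90, 11.46 and 11.66, up by 0.86 ± 0.17, and by 0.66 (adjusted p 0.07) without the 45 min array.

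The falls were led by stress genes. Of the 26 genes of the Msn2/4 general stress response 21 fell and none rose, with a median change of -0.69, and of 28 heat shock chaperones 20 fell and none rose, with a median of -0.34. Over all genes 10.8% fell. HSP26 (YBR072W), a small heat shock protein, read 13.61, 12.92, 11.93 and 11.37 and fell by 1.62 ± 0.18 on the log2 scale (adjusted p 4.53e-06), 3.07-fold lower and the largest called change of any gene. SSA3, an inducible Hsp70, read 11.32, 10.18, 9.39 and 9.37 and fell by 1.37 ± 0.15 (adjusted p 3.6e-06). SPI1, a wall protein induced in stationary phase, read 13.55, 12.70, 12.04 and 11.44 and fell by 1.39 ± 0.12 (adjusted p 3.51e-07). HSP26 and SPI1 dropped on each array, SSA3 until 75 min. ALD3, a stress aldehyde dehydrogenase, fell by 1.10 ± 0.21, the glycogen phosphorylase GPH1 by 1.03 ± 0.18 and SSA4, another Hsp70, by 0.91 ± 0.13. Without the 45 min array these were -0.63, -0.62 and -0.51 and did not pass, and the counts were 8 Msn2/4 genes and 9 chaperones. Without the 90 min array 12 Msn2/4 genes fell.

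Further falls in the top 10 were PHM7, a membrane protein of the phosphate list (-1.29 ± 0.17), NQM1, a transaldolase (-1.27 ± 0.20), TSA2, a peroxiredoxin (-1.24 ± 0.12), TFS1, an inhibitor of carboxypeptidase Y (-1.16 ± 0.16), and TMA10 (-1.10 ± 0.18). TMA10 alone of these 5 lost its call with an array left out, at -0.61 without 45 min. Of 17 phosphate genes 2 rose and 2 fell, beside 7.49% and 10.8% of all genes. But 7 rose without the 60 min array, none rose without the 45 min array or with fission yeast centring, and 1 fell without the 90 min array.

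Genes of the iron regulon fell in 11 of 17 cases with a median of -0.57, and none rose. HMX1, the haem oxygenase, read 11.46, 10.82, 10.23 and 10.00 and fell by 1.03 ± 0.087 on the log2 scale (adjusted p 2.01e-07). ENB1, a transporter of the siderophore enterobactin, read 12.60, 12.22, 11.61 and 11.25 and fell by 0.98 ± 0.14. Both dropped on each of the 4 arrays. The siderophore transporter SIT1 fell by 1.08 ± 0.31, but it did not pass without the 45 min (-0.81) or the 90 min array (-0.91). The count was 5 without the 45 min array and 4 without the 90 min array.

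Proteasome genes fell almost throughout, 27 of 32, with none rising and a median of -0.37. PUP2, a 20S subunit, read 12.88, 12.23, 11.94 and 11.96 and fell by 0.61 ± 0.10 on the log2 scale. RPN12, of the regulatory lid, read 12.94, 12.53, 12.31 and 12.18 and fell by 0.49 ± 0.062, and the ATPase RPT4 fell by 0.49 ± 0.071. Every one of the 32 changes was negative, from -0.61 to -0.15, and the median steps were -0.34, -0.19 and -0.027. Of the 32 genes 8 were called without the 45 min array, and PUP2 at -0.28 was not among them. In the fit of the 15 wild-type arrays no proteasome gene was called.

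The counts of growth and metabolism genes below stand beside 7.49% of all genes risen and 10.8% fallen. Of 37 ribosome biogenesis genes 2 rose, not above the share over all genes, with a median of 0.14. That count was 0 without the 45 or the 90 min array, 5 without the 75 min array and 12 without the 60 min array. Of 22 genes of RNA polymerases I and III 3 rose (5 with the replicate block, 1 without the 45 or the 90 min array, 7 without the 60 min array), with RPC34 highest at 0.50 ± 0.090 and 0.33 without the 45 min array (adjusted p 0.0803). Of the 19 ribosomal protein genes none was called by limma (1 was with the replicate block, and 3 had an unadjusted p under 0.05), with a median of 0.091, although 15 had windows that did not overlap. Genes of methionine and sulfate uptake rose in 8 of 23 cases, with a median of 0.24. STR3, a cystathionine lyase, read 9.44, 9.26, 10.51 and 10.44 and rose by 1.12 ± 0.17 (adjusted p 8.46e-05), and MMP1, a transporter of S-methylmethionine, read 11.28, 10.91, 11.82 and 12.11 and rose by 0.87 ± 0.19. Both dipped at 60 min and were among the 3 largest rises between 60 and 75 min, with HTB2. MMP1 did not pass without the 90 min array (0.72, adjusted p 0.0684), and without it 4 genes of the list rose. Purine synthesis genes fell in 7 of 16 cases, led by ADE17, which makes inosine monophosphate (-0.71 ± 0.098), and respiration genes in 7 of 37, led by the citrate cycle enzymes IDH1 (-0.56 ± 0.074) and IDH2 (-0.49 ± 0.067). The respiration count was 3 without the 45 min array, 2 without the 90 min array and 11 without the 75 min array or with fission yeast centring, and the purine count was 3 without the 90 min array, while 5 purine genes rose without the 60 min array.

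Outside these lists the largest rise of any gene was INA1, a membrane protein of the eisosome family, which read 9.64, 10.74, 11.18 and 11.65 and rose by 1.22 ± 0.17 (adjusted p 4.07e-05), and by 0.67 (adjusted p 0.0573) without the 45 min array. SIM1, a wall protein of the SUN family, read 11.54, 12.24, 12.87 and 13.10 and rose by 1.09 ± 0.30, and did not pass without the 45 min (0.74) or the 90 min array (0.98). The open reading frame YJL118W read 9.41, 9.97, 10.65 and 10.73 and rose by 1.00 ± 0.064 (adjusted p 1.65e-08), and the oligopeptide transporter OPT1 read 10.16, 10.74, 11.43 and 11.46 and rose by 1.00 ± 0.13. HOP2, a meiotic recombination factor, was under background at 45, 60 and 75 min (7.45, 7.76 and 8.40) and above it at 90 min (8.99), so no fold is given.

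The strains were compared over steps of 30 min: the wild-type change, against the change in cdc28-4 from 50 min to the mean of 70 and 90 min. The times are close but not the same, and each of the 2 cdc28-4 courses gives 1 array at each time. In cdc28-4 285 genes were higher later (5.23%) and 353 lower (6.48%). The change itself differed between strains for 292 genes (5.36%), 160 of them higher in wild type (2.94%) and 132 lower (2.42%). With the cdc28-4 course as a replicate block these were 310 and 318. Leaving out the 90 min wild-type array gave 82 and 31, and leaving out the 60 min array 279 and 340. Without the 45 min array they were 96 and 79, and without the 75 min array 223 and 222. Leaving out the 50, 70 and 90 min arrays of the first cdc28-4 course gave 74 and 28, and leaving out those of the second 75 and 36. Where a course is said below to be left out, only its arrays at these times were, and its other arrays stayed in the fit.

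The histones rose in wild type but not in cdc28-4, where their median change was -0.032 against 0.59 and 2 were lower later. The change differed between strains for 8 of 10, beside 5.36% of all genes. HTB2 changed by -0.04 in cdc28-4, a difference of 1.20 ± 0.19 between strains (adjusted p 0.000694). HHO1 was lower later in cdc28-4 (-0.18, adjusted p 0.047), a difference of 1.08 ± 0.085 (adjusted p 5.57e-07). The others, HHT2 (difference 0.42, adjusted p 0.0521) and HTZ1 (0.52, adjusted p 0.0566), passed with the replicate block, at adjusted p 0.00192 and 0.000116. The difference of HHT1 (0.80 ± 0.17) did not pass without the 90 min array (0.70) or without either cdc28-4 course (0.77 and 0.83).

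SBF and MBF targets moved in both strains. In cdc28-4 7 of 20 SBF targets and 5 of 28 MBF targets were higher later, beside 5.23% of all genes. Their medians were 0.18 and 0.10. The change differed for 7 SBF and 5 MBF targets, beside 5.36% of all genes, or for 11 and 9 with the replicate block. Without the 45 min array the counts were 4 and 2, without the 60 min array 18 and 15, and without the first cdc28-4 course 3 and 2. Without the second course 3 MBF targets differed. CLN2 was higher later by 0.53 in cdc28-4 beside 0.49 in wild type, and the strain difference was -0.04 ± 0.15 (adjusted p 0.968), an estimate that was 0.71 (adjusted p 0.00841) without the 60 min array and -0.78 (adjusted p 0.0115) without the 45 min array. CLN3 was higher later in cdc28-4 (0.35) and fell in wild type, a difference of -0.73 ± 0.10 (adjusted p 0.000203). NRM1 hardly moved in cdc28-4 (-0.04), with a difference of 1.15 ± 0.14 (adjusted p 4.22e-05), and YHP1 (0.56 ± 0.089) and FKH1 (0.82 ± 0.13) also differed, though not without the 45 min array (0.22 and 0.50).

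The CLB2 cluster and the spindle genes changed more in wild type. Of the 19 genes of the CLB2 cluster 2 were higher later in cdc28-4, beside 5.23% of all genes, with a median of 0.087. The change differed between strains for 10, beside 5.36% of all genes, and 9 of these were higher in wild type. Without the 90 min array none of the cluster differed, and without the 45 min array or either cdc28-4 course 5 did. CLB1 changed by -0.02 in cdc28-4, a difference of 0.91 ± 0.15 (adjusted p 0.000932), or of 0.48 (adjusted p 0.214) without the 90 min array. CLB2 was higher later there too, by 0.72, so that the difference of 0.33 ± 0.17 had adjusted p 0.343, and 0.0330 with the replicate block. Of the Hcm1 group 8 of 29 differed, beside 5.36% of all genes, or 15 with the replicate block. Without the 90 min array or without the second cdc28-4 course 4 did, without the first course 5, without the 60 min array 13 and without the 75 min array 15.

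DSE1 and DSE2 rose in wild type and were lower later in cdc28-4. DSE1 changed by -0.71 in cdc28-4 and DSE2 by -0.64, for differences of 1.43 ± 0.24 and 1.40 ± 0.28 (adjusted p 0.00112 and 0.00464). The difference of DSE2 did not pass without the 90 min array (1.21, adjusted p 0.0532). For the methionine genes the medians of both strains had opposite signs, 0.24 against -0.082. Over all genes the change differed between strains for 5.36%. MET3, the ATP sulfurylase, read 9.83, 9.68, 10.18 and 10.16 in wild type while it changed by -1.31 in cdc28-4, a difference of 1.73 ± 0.19 (adjusted p 1.68e-05). Its rise of 0.42 in wild type had adjusted p 0.0464 and did not pass with any one of the 4 arrays left out. MET17, the sulfhydrylase, read 13.01, 11.98, 12.73 and 13.08, with overlapping windows, and its difference was 1.43 ± 0.17. The methionine list had 7 such genes of 23, or 4 without the 90 min array or the second cdc28-4 course, and 14 with cdc28-4 interpolated to the wild-type times. GND2, a phosphogluconate dehydrogenase, was level in wild type (9.14, 8.95, 9.04 and 9.17) and changed by -1.54 in cdc28-4.

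The largest differences in the other direction were CYC7, the minor cytochrome c, which read 12.27, 11.25, 10.99 and 10.66 in wild type (-1.47 ± 0.18, adjusted p 4.22e-05), and SPI1 (-1.19 ± 0.16). HSP30, a heat-induced membrane protein, fell by 0.95 in wild type and changed by 0.16 in cdc28-4, a difference of -1.11 ± 0.32 (adjusted p 0.0458) that did not pass without the 45 min (-0.88) or 90 min array (-0.91) or without either cdc28-4 course (-1.06 and -1.16). Its fall in wild type did not pass without the 45 min (-0.72) or the 90 min array (-0.75), and that of CYC7 not without the 45 min array (-0.43). YHL026C, a putative protein, and CLD1, the cardiolipin phospholipase, followed at -1.07 ± 0.20 and -0.95 ± 0.19. In cdc28-4 13 of 26 Msn2/4 genes, 9 of 28 chaperones, 11 of 17 iron genes and 22 of 32 proteasome genes were lower later. Over all genes 6.48% were. The medians of these lists were -0.40, -0.14, -0.66 and -0.23. The difference passed for 11 Msn2/4 genes in mixed directions, 8 of them lower in wild type. It passed for 2 chaperones, no iron gene (2 with the replicate block) and 2 proteasome genes. The shares of chaperones and proteasome genes were close to the 5.36% over all genes. The chaperone count was 6 without the 60 or the 75 min array and 0 without the 90 min array or either cdc28-4 course, and the proteasome count was 11 without the 60 min array and 0 without the 45 or the 90 min array or either course. Without the 60 or the 75 min array 1 iron gene differed. The Msn2/4 count was 7 without the 45 min array, 5 without the 90 min array or the first cdc28-4 course, and 6 without the second. ALD3 changed more in cdc28-4 (-2.41), a difference of 1.32 ± 0.28 that did not pass without the 60 min array (0.85) or the first cdc28-4 course (1.17). Respiration genes were higher later in 9 of 37 cases in cdc28-4, beside 5.23% of all genes. The change was lower in wild type for 10 of the 37, beside 2.42% of all genes. That count was 3 without the 45 min array, 1 without the 90 min array or the second cdc28-4 course, and 0 without the first.

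**Figure D5:**
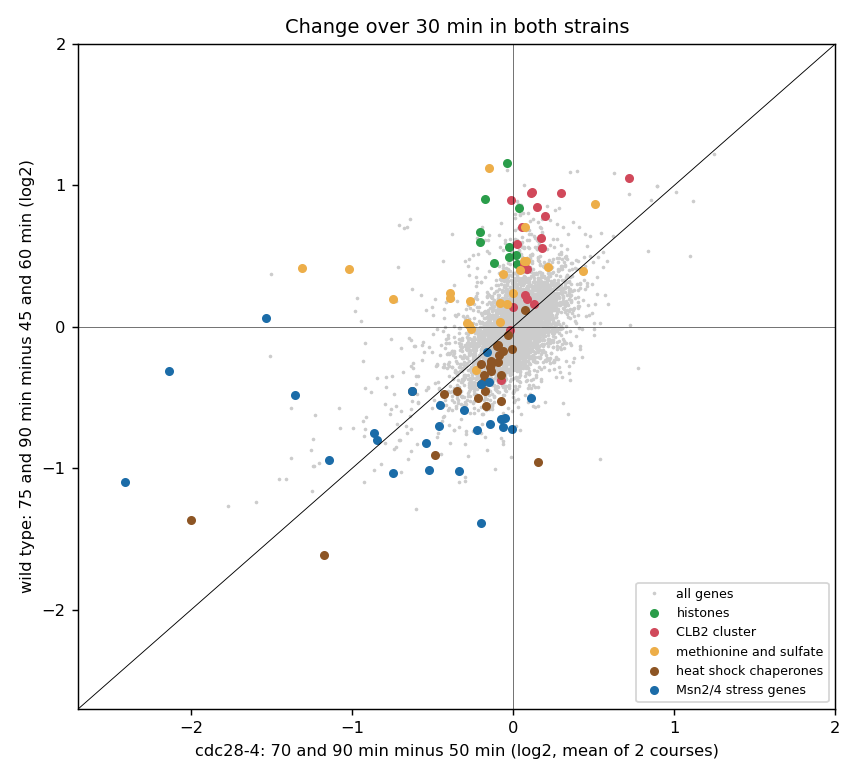
Log2 change over 30 min of each gene in wild type (y axis, 75 and 90 against 45 and 60 min) and in cdc28-4 (x axis, 70 and 90 against 50 min), with all genes in grey, 5 lists in colour and the line of equal change. Histones lie above the line, with medians of 0.59 in wild type and -0.032 in cdc28-4, while the heat shock chaperones are low in both, at -0.34 and -0.14.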

How the data were processed

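Per the file headers and labels, the authors deposited linear intensities, 1 per probe set and array of the Affymetrix Yeast Genome 2.0 type, made with the R package affy per the submitters' processing notes, with version and summary method not given in the sources used here. Log2 was taken of these deposited intensities, of which the lowest was 34.2, with no added constant. Of 10928 probe sets 5498 had 1 S. cerevisiae gene, and the brightest of several was kept, leaving 5449 genes, with 12 symbols updated through refseq. Arrays hold no counts, so the number of arrays limits the precision.

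R 4.3.3 with limma 3.58.1 fitted 48 arrays with a mean for each strain and time (15 residual and 4.00 prior degrees of freedom, all from cdc28-4 pairs). Tests were two-sided with Benjamini-Hochberg adjustment over 5449 genes and a threshold of 0.05. On simulated data 86% of genes changed by 0.5 and 100% of those changed by 1 (log2) were recovered, with 10 false calls. The simulated noise was independent between arrays and had the fitted spread in both strains. It therefore cannot show how the test does where wild type varies more than cdc28-4 or where arrays of a course deviate together. P-values rest on the spread between cdc28-4 arrays of the same time, and not on that between wild-type cultures, of which there was 1.

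Same-numbered cdc28-4 arrays come from the same course, and their deviations correlated between times (r from 0.00514 to 0.898, median 0.468), so a fit with the course as a replicate block was an alternative. Others were 2 fits of wild type alone, 3 scalings, a filter on dim genes, the prior, the mean of probe sets, interpolated cdc28-4 times and each array left out. The 35 gene lists hold 669 genes, of which 659 were measured, and 1 of the lists is not reported here. Members, lists and tests were chosen with earlier results of these data known. The genes named were drawn from all measured cyclins, Cdk regulators, cycle transcription factors and histones, up to 4 called members with the largest change of each other list, the 10 largest rises and falls, the 5 largest strain differences each way and the 3 largest rises of each step.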

Additional observations from a re-analysis of the deposited data

Results flagged for a closer look

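The change over 30 min differed between wild type and cdc28-4 for 292 genes (5.36%) by limma's test of the difference itself. Among these were 8 of the 10 histone genes. The largest differences towards wild type (log2, wild-type change minus cdc28-4 change) were 1.73 for MET3, 1.60 for GND2, 1.43 for DSE1, 1.43 for MET17 and 1.40 for DSE2. Those in the other direction were -1.47 for CYC7, -1.19 for SPI1, -1.11 for HSP30, -1.07 for YHL026C and -0.95 for CLD1. GND2 and MET3 changed by -1.54 and -1.31 in cdc28-4 beside 0.06 and 0.42 in wild type, and SPI1 by -0.20 beside -1.39. The times of the strains are close but differ, and 1 wild-type culture stands against 2 cdc28-4 courses, so a difference between cultures cannot be told apart from one between strains.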

How the results depend on the processing

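No gene was called in the opposite direction under any alternative fitted to the wild-type change. Against 408 rises and 591 falls, the 4 wild-type arrays alone gave 0 of each, the 15 wild-type arrays 62 and 108, and fission yeast centring 231 rises. Leaving out 1 array gave from 150 to 684 rises and from 232 to 852 falls. With the replicate block, which pairs cdc28-4 arrays by course, the strain difference was higher in wild type for 310 genes and lower for 318 against 160 and 132, and it moved no count of wild-type calls over all genes by over 1.5 times. Leaving out 1 wild-type array gave from 82 to 279 and from 31 to 340. Leaving out the 50, 70 and 90 min arrays of 1 cdc28-4 course gave from 74 to 75 and from 28 to 36. Of 160 named genes 17 changed sign between windows with 1 array left out, none of them called in the full fit. Counting results that met the threshold on one side, the sign turned for 4. STB1, an SBF and MBF partner, differed by 0.30 between windows without the 60 min array and ranged from -0.37 to 0.30. With 1 array left out the strain difference ran from -0.027 (without 45 min) to 0.94 for SPO16, from -0.054 (without 90 min) to 0.97 for SWI5 and from -0.78 to 0.71 (without 60 min) for CLN2. The cause was not tested. Median centring, quantile normalization, the dim gene filter, the other prior and the mean of probe sets kept every count of calls over all genes within 1.5 times. The background, 8.60, is not a floor, but changes of genes near or under it are uncertain.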

Other observations

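The mating genes of a cells were lower in the later window. Of 7 a-specific genes 4 fell (2 without the 90 min array) and none rose, with a median change of -0.36. MFA2, a gene of the pheromone a-factor, read 13.81, 13.60, 13.26 and 12.96 and fell by 0.60 ± 0.092 on the log2 scale (adjusted p 0.000113). MFA1 read 13.00, 13.03, 12.77 and 12.19 and fell by 0.54 ± 0.067, and STE2, the receptor for alpha factor, read 12.97, 12.99, 12.59 and 12.38 and fell by 0.50 ± 0.10. MFA1 was lowest at 90 min, and without that array its change was -0.25 (adjusted p 0.0692) and that of STE2 -0.39 (adjusted p 0.0655). In cdc28-4 MFA1 was higher later by 0.31, and its change differed between strains by -0.85 ± 0.089 (adjusted p 8.69e-06). Of 19 pheromone-induced genes 3 fell (5 with the replicate block, none without the 90 min array), beside 10.8% of all genes. Of the 4 genes of alpha cells none was called.

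The counts of the following lists stand beside 7.49% of all genes risen and 10.8% fallen. Of 31 amino acid synthesis genes 1 rose and 5 fell, but 6 rose and 2 fell without the 60 min array and 1 fell without the 90 min array. The falls were led by ARG1, the argininosuccinate synthase, which read 12.83, 12.96, 12.49 and 12.05 and fell by 0.63 ± 0.098 on the log2 scale, beside -0.64 in cdc28-4. Of 23 glucose-repressed genes 5 fell (2 without the 45 min and 1 without the 90 min array), led among those above background throughout by HXK1, a hexokinase, which read 13.57, 13.36, 12.96 and 12.52 and fell by 0.72 ± 0.098. Of 24 ergosterol synthesis genes 1 rose and 2 fell, with from 0 to 5 falls when 1 array was left out. Of 23 genes of meiosis and sporulation, 10 of which were under background in both windows, 4 rose and 1 fell (4 with the replicate block), and 1 rose without the 45 min array, 2 without the 90 min array and 5 fell without the 60 min array. SPO16, a meiotic protein, read 9.22, 10.19, 10.58 and 10.28 and rose by 0.73 ± 0.071, a rise that was 0.24 (adjusted p 0.0965) without the 45 min array.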
